A study of Mus musculus with 9 samples.

Results

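Apolipoprotein genes encode the protein part of the particles that carry cholesterol and triglyceride in blood, and the 10 genes described here were Apoa1, Apoa2, Apoa4, Apoa5, Apob, Apoc1, Apoc2, Apoc3, Apoe and Mttp, of 16231 genes in the deposited count table. They were picked by gene symbol, from a list drawn up with earlier results of these data known, and all 10 were in the table and passed the filter on low counts, as did 12747 genes in all. The table covers 9 mouse libraries labelled retina: a young group, an aged group and an aged group given EGCG (epigallocatechin gallate, a catechin of green tea), each with 3 libraries. Its title names EGCG, injury of retinal pigment epithelial cells and a CYFIP2 and AKT pathway. The sources used here give no age, strain, dose, route or duration. No label ties the 3 libraries of a group to different mice, and the design text speaks of duplicate samples; the p-values therefore reflect the scatter among these libraries only, and that scatter may be technical.

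A lipoprotein particle is a droplet of lipid wrapped in apolipoproteins. Apob is the structural protein of very-low-density and low-density particles, and Mttp (microsomal triglyceride transfer protein) loads lipid onto it in the endoplasmic reticulum. Apoa1 and Apoa2 are the main proteins of high-density particles, Apoe is a ligand of the receptors that clear particles, and the small C proteins and Apoa5 act on lipoprotein lipase and on clearance. Liver hepatocytes make nearly all of them, the intestine makes Apob, Apoa1 and Apoa4 as well, and in the eye Apoe is known from Muller glia and the pigment epithelium.

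The libraries held 34240500 to 39922044 counts. The summed level of 12 hepatocyte markers, Alb and Ttr among them, was 147470 to 164135 CPM (library-size-normalised counts, scaled by TMM factors, the unit of all levels below unless said otherwise). Of 13 rod and cone markers, 6 were not in the table and 4 more were under 1 CPM in every library; the highest, Gnat1, had group means of 29.17 CPM in young, 10.04 in aged and 4.743 in EGCG-treated libraries. Of 10 markers of the retinal pigment epithelium, 5 were not in the table, and of the others Rdh5 had 16.39, 12.2 and 15.11 CPM and Lrat 3.556, 15.08 and 7.771 CPM in the same order. Of 10 markers of Muller glia and astrocytes, 2 were not in the table and 4 more were under 1 CPM in every library. Most photoreceptor markers were thus absent from the table or under 1 CPM, and hepatocyte markers were abundant. A few genes on the marker lists of the labelled tissue were measured at low levels, and their source was not tested. The libraries are called by their labels without a claim on the tissue. All 12 macrophage markers rose from young to aged libraries (summed level 139.7 to 142.5 in young, 774.6 to 792.3 in aged and 295.4 to 304.3 CPM in EGCG-treated libraries), and all 12 fell from aged to EGCG-treated ones. All 5 red blood cell markers rose with EGCG. The part of these markers in the results below was not tested, and in bulk tissue fewer cells of a type and less RNA per cell cannot be told apart.

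By the deposited FPKM values, which divide by gene length, Apoa1 and Apoe were the most abundant of the 10. The order of the top genes depends on the lengths used. Those behind the FPKM were 988 bp for Apoa1, 2295 for Apoe and 936 for Apoa2. The exons annotated in GENCODE M21 cover 1236, 2138 and 537 bp. In young libraries Apoa1 had 9373 ± 152 FPKM (mean ± SD, n = 3) and Apoe 7582 ± 18.1. Apoa2 followed with 4364 ± 97.4, Apoc1 with 2674 ± 131 and Apoc3 with 1471 ± 23. Apoa5 stood at 866 ± 23.2, Apob at 463 ± 3.12, Apoa4 at 235 ± 6.15 and Mttp at 101 ± 0.838 FPKM. Apoc2 was lowest at 3.87 ± 0.387 FPKM. No neighbours in this order overlapped in their young libraries. In EGCG-treated libraries the top of the order was closer, with Apoe at 9737 ± 135 and Apoa1 at 9688 ± 238 FPKM, whose libraries overlapped, and Apoa5 (399.7 ± 8.32) lay next to Apob (382.5 ± 11.9), with overlapping libraries too. Together the 10 genes took 4.25% to 4.31% of the counts of the young libraries, 4.35% to 4.49% of the aged and 4.77% to 4.89% of the EGCG-treated ones, and Apoe alone gave 40.4% to 46.5% of that sum.

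The genes lie in 2 clusters and 3 single loci of GRCm38 (GENCODE M21, all protein-coding). Apoa1 (chr9:46228580-46230466), Apoc3 (chr9:46232933-46235636), Apoa4 (chr9:46240696-46243459) and Apoa5 (chr9:46268633-46271919) form the cluster on chromosome 9, with Apoc3 on the minus strand. Apoe (chr7:19696109-19699188), Apoc1 (chr7:19689481-19692660) and Apoc2 (chr7:19671579-19677941) lie on the minus strand of chromosome 7, with Apoc4 between Apoc1 and Apoc2. Apoa2 is at chr1:171225054-171226379, Mttp at chr3:138089854-138144968 and Apob at chr12:7977648-8016835.

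Upstream sequences were taken from RefSeq on GRCm38.p6 for 8 of the 10 genes; Apoc1 and Apoc3 had no entry. The stretches of Apoa4 and Apoa5, the 2 genes with the largest fall from young to aged libraries, and of Apob, which did not pass the test there, are given from base 250 before the RefSeq start, on the plus strand and without exonic bases. They are chr9:46240594-46240695, chr9:46268358-46268607 and chr12:7977427-7977647. Capitals mark matches to motifs searched on both strands: CAAAGNNCA (core of the direct repeat bound by HNF4 and related nuclear receptors), CACGTG (an E-box), TATAAA (the TATA box), TGACCT (a single nuclear receptor repeat) and GTTAAT (core of the HNF1 site).
Apoa4: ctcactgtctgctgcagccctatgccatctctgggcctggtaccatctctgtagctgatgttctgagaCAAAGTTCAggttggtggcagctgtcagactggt
Apoa5: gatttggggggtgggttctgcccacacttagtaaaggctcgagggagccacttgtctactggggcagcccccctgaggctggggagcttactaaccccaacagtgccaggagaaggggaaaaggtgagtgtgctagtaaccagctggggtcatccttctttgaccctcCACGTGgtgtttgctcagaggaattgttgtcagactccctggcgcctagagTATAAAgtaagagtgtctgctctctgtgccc
Apob: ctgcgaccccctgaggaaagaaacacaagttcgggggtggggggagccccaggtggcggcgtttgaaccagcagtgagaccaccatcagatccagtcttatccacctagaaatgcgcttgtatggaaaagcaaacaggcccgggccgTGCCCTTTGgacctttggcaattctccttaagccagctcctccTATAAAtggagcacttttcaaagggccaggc
Positions count from the RefSeq starts of Apoa4, Apoa5 and Apob, 46240844, 46268608 and 7977677. The GENCODE starts differ, at 46240696, 46268633 and 7977648. For Apoa5, RefSeq lists 46268633 as another start. Counted from there, the E-box lies 107 to 102 bases before the start and TATAAA 56 to 51. The Apoa4 stretch held a match to the direct repeat core 182 to 174 bases before the start. Apob held one on the other strand, 103 to 95 bases before the start, and TATAAA 60 to 55 bases before it. Apoa5 held the E-box, 82 to 77 bases before the start, and TATAAA at 31 to 26. Of all 32851 RefSeq promoters, searched over the full 250 bases, 5.49% held the direct repeat core, 6.02% the E-box and 12.4% TATAAA. The single repeat was in 14% and the HNF1 core in 6.43%. The stretches given for Apoa4 and Apob are shorter, at 102 and 221 bases. A match is a description of the letters and not a binding site.

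From young to aged libraries Apoa4, Apoa5, Apoc2, Mttp and Apoc3 fell most of the 10 genes. In the quasi-likelihood test of edgeR, with p-values adjusted by Benjamini and Hochberg's method over all genes tested, 9 of the 10 genes passed at an adjusted p of 0.05, 9 lower and 0 higher, with Apob the exception. Of the 12 hepatocyte markers 10 were lower and 2 higher with age as well (median -0.22), or 5 lower and 4 higher with library totals, and their part in the falls of the 10 genes was not tested. Over all genes tested 69.5% passed, 33.4% higher and 36.1% lower, so a pass in itself was common. The median log2 fold change of the 10 was -0.39, against -0.01 over all genes tested. The scaling matters here, because TMM factors were 0.911 to 0.92 in young and 1.027 to 1.055 in the other libraries. With library totals alone the median of all genes moved to 0.185, calls over all genes went from 4261 higher and 4596 lower to 5922 and 2878, and those among the 10 became 3 higher and 5 lower. Upper-quartile factors gave 5061 higher and 3676 lower over all genes, and 2 higher and 7 lower among the 10. Apoa4, Apoa5, Apoc2, Apoc3 and Mttp were lower in aged libraries and past the threshold under all settings run, and the direction or call of the other 5 depended on the setting.

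**Figure D1:**
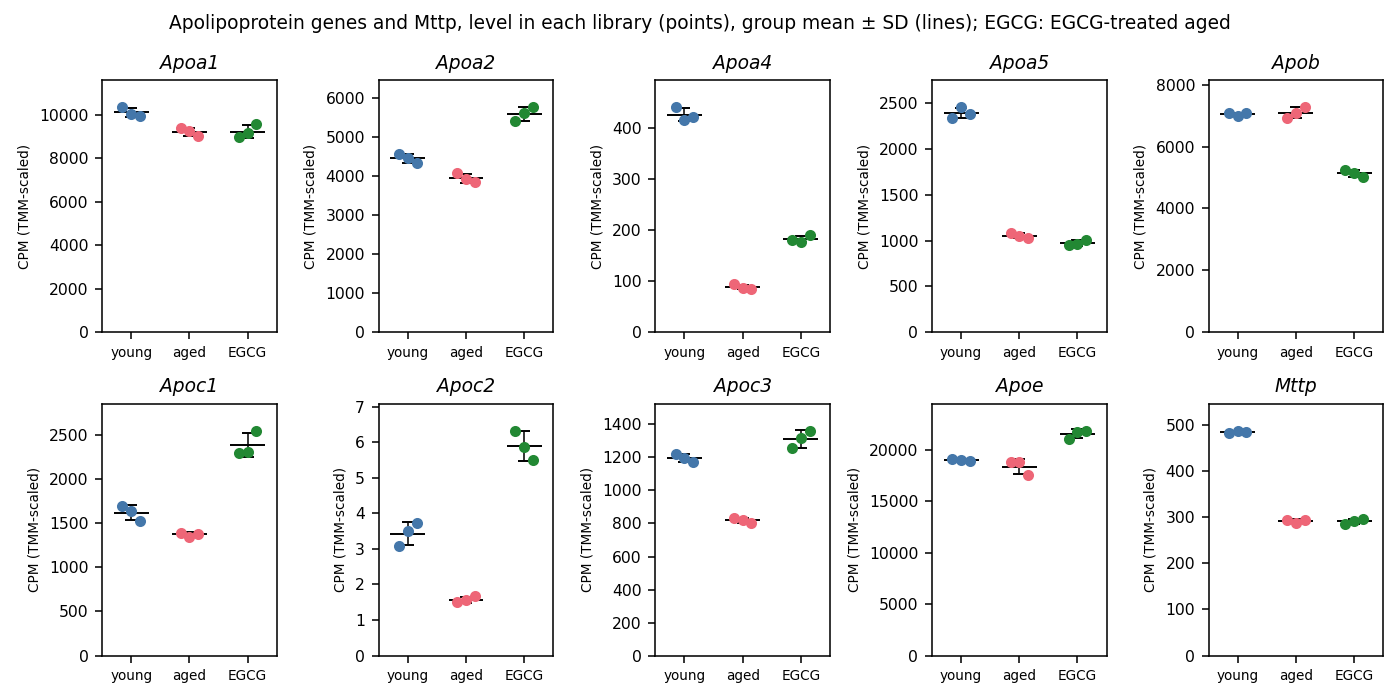
Level of each gene (y axis, TMM-scaled CPM, starting at 0) in the 3 libraries of each group (points), with the group mean and SD as lines. Apoa4, Apoa5 and Mttp were highest in young libraries, while Apoa2, Apoc1, Apoc2 and Apoe were highest in EGCG-treated ones. On this scale Apoa1 was also highest in young and Apoc3 in EGCG-treated libraries. For these genes the difference between young and treated libraries changed sign under some other settings.

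Apoa4, a protein of intestinal and hepatic particles known for its part in satiety and lipid secretion, had the largest change of the 10 from young to aged libraries. It stood at 441.5, 417 and 421.5 CPM in young, 94.2, 87.1 and 85.1 in aged and 182, 178 and 190 in EGCG-treated libraries. The 3 groups did not overlap, and the treated libraries lay between the other groups. Its log2 fold change was -2.27 ± 0.03 (SE) from young to aged (adjusted p = 7.49e-41, edgeR), 4.81-fold lower, and 1.05 ± 0.03 from aged to EGCG-treated (adjusted p = 6.89e-28, edgeR), 2.06-fold higher. It remained 2.33-fold below young in treated libraries (-1.22, adjusted p = 1.64e-31, edgeR). Of 10 enterocyte markers 5 were not in the table, 2 more did not pass the filter, and of the 3 tested 1 was lower and 0 higher with age, and 1 was higher and 2 lower with EGCG. Fabp2, a fatty acid binding protein, had group means of 43.9, 24.83 and 67.48 CPM in young, aged and treated libraries, Anpep 163.5, 167.2 and 149.3, and Slc5a1 0.764, 1.048 and 0.438. Their part in the Apoa4 values was not tested. Apoa4 overlaps 2 models on the opposite strand, Gm10680, annotated as antisense, and Gm47528, an unverified model (TEC), and without a stated strand their reads cannot be told apart.

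Apoa5, a liver-made stimulator of triglyceride clearance, had 2341, 2454 and 2379 CPM in young, 1083, 1052 and 1023 in aged and 950, 967 and 1007 in EGCG-treated libraries. Young libraries were far above both aged groups, and the treated ones lay just below the untreated. The fall with age was -1.18 ± 0.02 (2.27-fold, adjusted p = 1.22e-36, edgeR). From aged to treated it was -0.11 ± 0.02 (adjusted p = 6.36e-05, edgeR), a call lost with upper-quartile factors (-0.05, adjusted p = 0.0619, edgeR). Apoa5 also overlaps an antisense model, Gm47544.

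Apoc3, which inhibits lipoprotein lipase and slows clearance, moved the other way under EGCG. Its levels were 1223, 1197 and 1174 CPM in young, 831.5, 821 and 802.5 in aged and 1257, 1315 and 1362 in treated libraries. The aged libraries were lowest and no groups overlapped. It was 1.46-fold lower in aged than in young libraries (-0.55 ± 0.02, adjusted p = 1.25e-23, edgeR) and 1.60-fold higher in treated than in aged ones (0.68 ± 0.02, adjusted p = 8.48e-27, edgeR). Against young, the treated libraries were higher by 0.13 (adjusted p = 7.53e-06, edgeR), a difference that changed sign to -0.01 (adjusted p = 0.651) with a correction for gene length.

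That correction was added after the data had been seen. Across the 12747 genes tested, the log2 fold change from aged to EGCG-treated libraries had a Spearman coefficient of -0.304 with gene length. Its median was 0.22 in the shortest genes (up to 2145 bp) and -0.245 in the longest (from 5679 bp), the outer bins of 4 equal bins by length. The coefficient was 0.139 from young to aged and -0.117 from young to treated, and genes are not independent replicates. Several of the 10 genes are short: Apoc1 has 554 bp, Apoc3 746, Apoa2 936 and Apoa1 988 bp in the lengths behind the deposited FPKM, against 13957 bp for Apob. The change of Apoc3 from aged to treated was 0.42 once this trend was removed, still past the threshold.

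Apoc1, a small protein that hinders particle uptake, had 1694, 1634 and 1525 CPM in young, 1391, 1347 and 1380 in aged and 2298, 2310 and 2548 in EGCG-treated libraries. Treated libraries were highest and aged lowest, without overlap. The rise with EGCG was 0.80 ± 0.03 (1.74-fold, adjusted p = 1.11e-26, edgeR), or 0.49 with the length trend removed. The fall with age was -0.24 ± 0.03 (adjusted p = 8.4e-10, edgeR), and it was -0.04 and no longer past the threshold with library totals (adjusted p = 0.193, edgeR).

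Apoc2, the activator of lipoprotein lipase, was counted at a very low level: 3.08, 3.49 and 3.73 CPM in young, 1.497, 1.57 and 1.66 in aged and 6.33, 5.86 and 5.50 in treated libraries, from 58 to 232 counts per library. The groups did not overlap. It was 2.17-fold lower with age (-1.12 ± 0.20, adjusted p = 2.86e-06, edgeR) and 3.74-fold higher with EGCG (1.90 ± 0.19, adjusted p = 8.41e-12, edgeR). On the log2(FPKM + 1) scale, which understates the change of low genes, the age difference was -0.68. In young libraries its FPKM was 0.00051 of that of Apoe, while Apoc4 beside it reached 0.0421. The latter rests on a length of 518 bp for Apoc4, whose exons in GENCODE M21 cover 2537 bp. The annotation has a protein-coding read-through model, Gm44805, over both genes; it overlaps Apoc2 by 6358 bp on the same strand and has no row in the count table, so the level of Apoc2 is uncertain. Apoc4 itself changed by -0.25 with age and 0.92 with EGCG.

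The high-density particle proteins changed little with age. Apoa1 had 10345, 10052 and 9934 CPM in young, 9374, 9249 and 9012 in aged and 8959, 9158 and 9571 in treated libraries, so young lay above and the other groups overlapped. From young to aged it was -0.13 ± 0.02 (adjusted p = 2.61e-08, edgeR), but 0.07 with library totals (adjusted p = 0.000313). From aged to treated it was 0.00 ± 0.02 (adjusted p = 0.904, edgeR), and -0.20 with the length trend removed. From young to treated it was -0.13, but 0.05 with library totals. Apoa2 stood at 4569, 4476 and 4334 CPM in young, 4069, 3919 and 3846 in aged and 5402, 5631 and 5767 in treated libraries. Treated libraries were the highest, without overlap. Apoa2 was 1.42-fold higher in treated than in aged libraries (0.51 ± 0.02, adjusted p = 3.1e-24, edgeR; 0.29 with the length trend removed), and -0.18 from young to aged, but 0.02 with library totals (adjusted p = 0.269).

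Apoe had 19121, 18996 and 18872 CPM in young, 18767, 18760 and 17538 in aged and 21048, 21743 and 21840 in treated libraries. Treated libraries were the highest, and 1 aged library lay below the rest. EGCG-treated libraries were 1.17-fold above aged (0.23 ± 0.02, adjusted p = 2.07e-15, edgeR), and above young by 0.18. The age difference of -0.05 ± 0.02 (adjusted p = 0.0107, edgeR) was -0.02 without aged library 3 (adjusted p = 0.306) and 0.15 with library totals, so its direction rests on the scaling. Macrophages also make Apoe, and the part of their markers, given above by group, was not tested.

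Apob and Mttp, the pair that starts a particle, did not move together. Apob had 7083, 7002 and 7079 CPM in young, 6923, 7092 and 7274 in aged and 5247, 5164 and 5024 in treated libraries. Young and aged overlapped, and treated libraries were lower. The age difference was 0.01 ± 0.02 (adjusted p = 0.681, edgeR), but 0.21 with library totals and -0.27 with the length trend removed, both past the threshold. From aged to treated Apob was 1.38-fold lower (-0.46 ± 0.02, adjusted p = 1.71e-25, edgeR), or -0.14 with the length trend removed. Mttp had 483, 488 and 485 CPM in young, 293, 289 and 294.5 in aged and 285.5, 292 and 296 in treated libraries. Young libraries were higher and the aged groups overlapped. Mttp was 1.66-fold lower with age (-0.73 ± 0.03, adjusted p = 3.09e-27, edgeR). Its difference from aged to treated was 0.00 ± 0.03 (adjusted p = 0.886, edgeR), and 0.11 with the length trend removed. This difference was short of the threshold in 19 of the 20 settings run, but not in all. Mttp overlaps Trmt10a and the antisense model Gm43691.

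In EGCG-treated against aged libraries 8 of the 10 genes passed, 6 higher and 2 lower, where 63.3% of all genes passed, 31.8% higher and 31.5% lower. The median of the 10 was 0.37, against 0.01 over all genes. Over the shortest genes (up to 2145 bp), which include Apoa1, Apoa2, Apoa4, Apoc1, Apoc2 and Apoc3, the median was 0.22. Upper-quartile factors gave 4643 higher and 3523 lower calls over all genes, in place of 4053 and 4011, and 7 higher and 1 lower among the 10. In EGCG-treated against young libraries 10 of 10 passed, 5 higher (Apoa2, Apoc1, Apoc2, Apoc3 and Apoe) and 5 lower (Apoa1, Apoa4, Apoa5, Apob and Mttp), where 62.9% of all genes passed, 30.8% higher and 32.1% lower. With library totals the median of all genes there moved to 0.195, calls over all genes went from 3927 higher and 4087 lower to 5628 and 2802, and Apoa1 changed sign. With upper-quartile factors they were 5486 and 2883, and that median was 0.181. The comparisons share libraries, so their values are not independent.

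**Figure D2:**
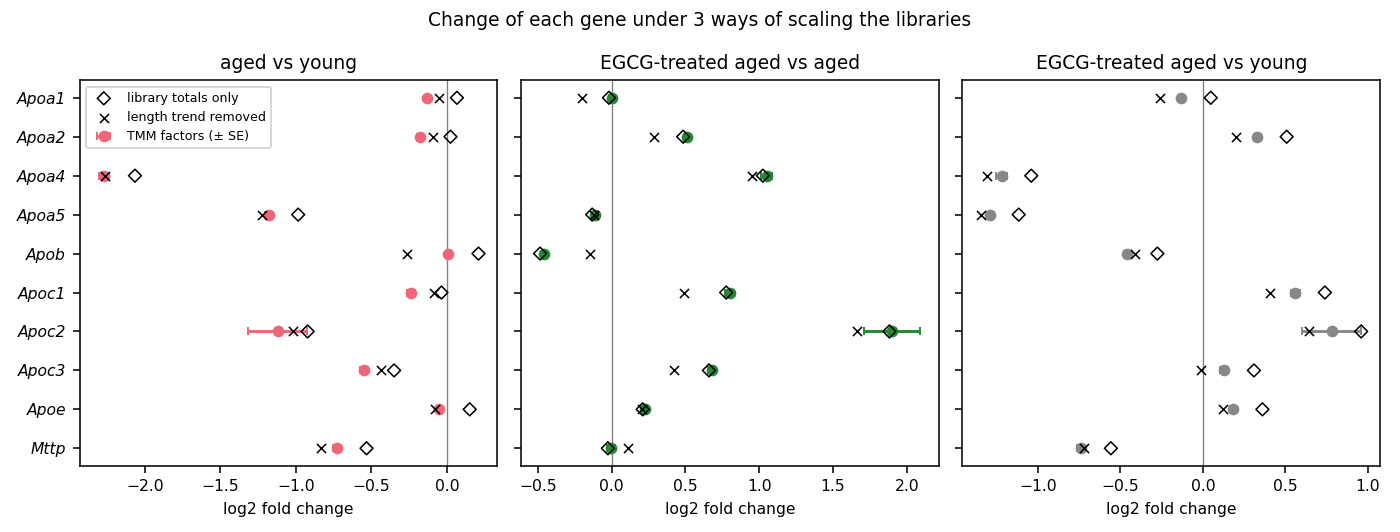
Log2 fold change of each gene (x axis) in the 3 comparisons, by edgeR with TMM factors (filled, bars are SE), with library totals only (diamonds) and with the length trend removed (crosses). Apoa4, Apoa5 and Mttp stayed below 0 from young to aged under all 3, while Apoa1, Apoa2, Apob and Apoe had values on both sides of 0.

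Ratios between the genes within a library do not depend on a factor that scales the whole library, but pairs of unequal length are not free of the length trend given above. The ratio of Apoc3 to Apoa5, which have opposed actions on triglyceride clearance, rose from 1.70 ± 0.06 (SD, n = 3) in young to 2.64 ± 0.03 in aged and 4.56 ± 0.07 in treated libraries. Each group was apart from the next. Apoa4 to Apoa1 went from 0.0250 ± 0.0004 to 0.00572 ± 0.0002 and 0.0118 ± 0.0003. Apob to Mttp was 4.60 ± 0.05 in young, 7.68 ± 0.19 in aged and 5.59 ± 0.23 in treated libraries, so it was highest in aged ones. Apoe to Apoa1 was 0.809, 0.858 and 1.005 in the same order, and Apoa2 to Apoa1 was 0.466, 0.452 and 0.641.

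**Figure D3:**
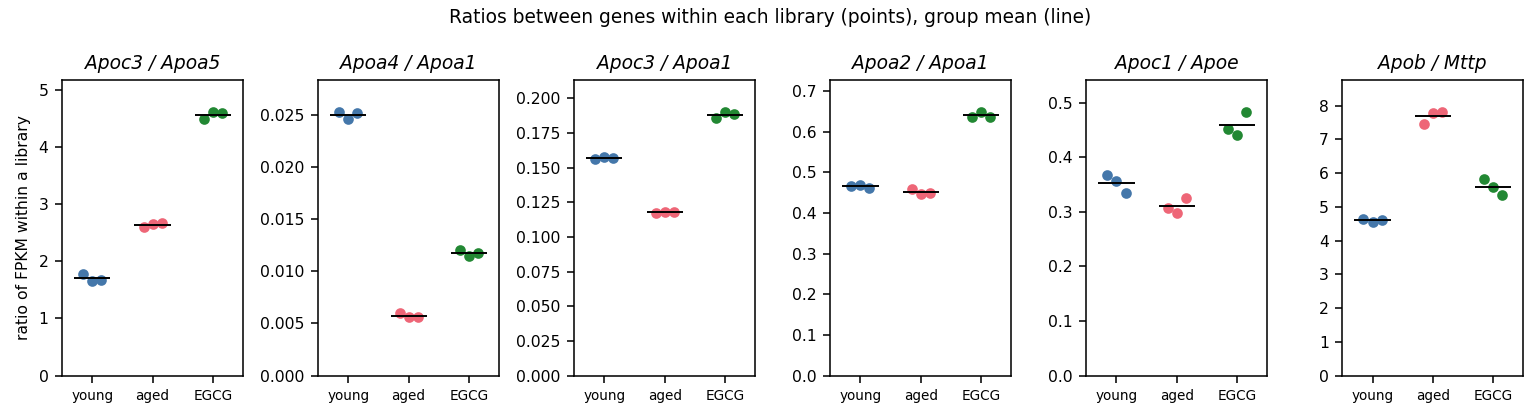
Ratio of FPKM values of 6 gene pairs within each library (points; y axis starts at 0), with group means as lines. Apoc3 to Apoa5 went from 1.70 in young to 4.56 in EGCG-treated aged libraries.

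Neighbouring genes of the clusters had their own values. On chromosome 9, Apoa1 changed by -0.13 from young to aged, and Apoc3, 7.1 kb away, by -0.55. Apoa4, at 12.1 kb, changed by -2.27 and Apoa5, at 40.1 kb, by -1.18. Beyond Apoa5 lie Zpr1, at 44.5 kb, and Bud13, at 54.4 kb, which are no apolipoproteins and both fell by 1.65 on the log2 scale (adjusted p = 1.29e-29 and 1.31e-15, edgeR). With EGCG, Zpr1 changed by -0.18 and Bud13 by 0.22, the latter not past the threshold (adjusted p = 0.15). On chromosome 7, Tomm40 lies 16.2 kb from Apoe and changed by -0.81 with age and 0.37 with EGCG. Bcl3, at 123.6 kb from Apoe, changed by -2.12 with age and 0.0024 with EGCG (adjusted p = 0.973, edgeR). Not all neighbours fell with age: Tagln, at -292.5 kb from Apoa1, changed by 1.17 with age and -1.33 with EGCG. Relb, at -69.8 kb from Apoe, changed by 1.4 with age and -1.75 with EGCG. Of 19 neighbouring genes tested, 10 were lower and 4 higher with age (36.1% and 33.4% over all genes). With EGCG 9 were lower and 4 higher (31.5% and 31.8% over all genes). The 19 include Apoc4, and the farthest lies at -390 kb from Apoa1. With library totals the counts with age turned to 6 lower and 9 higher.

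**Figure D4:**
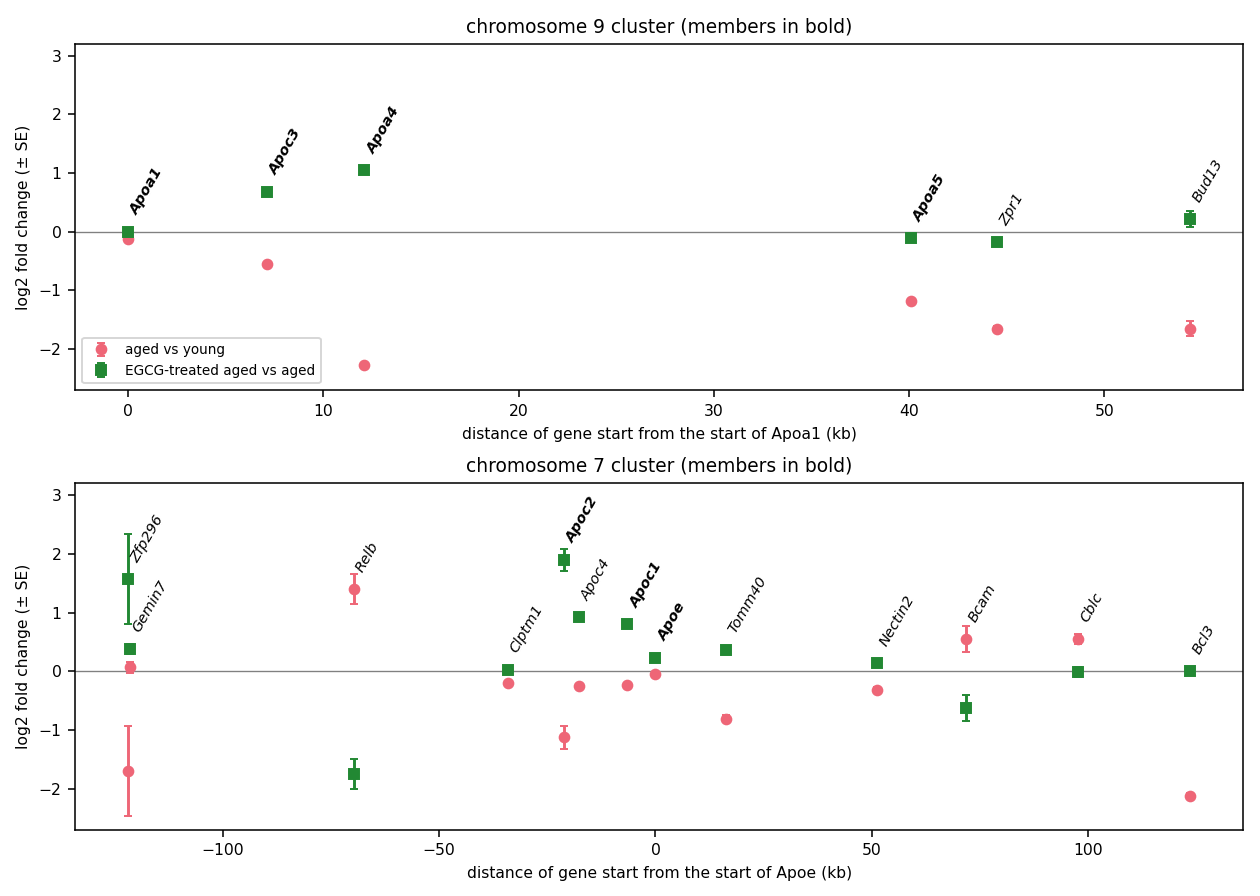
Log2 fold change (y axis, bars are SE) of the genes within 130 kb of Apoa1 (top) and Apoe (bottom) by distance in kb from its start; circles are aged against young and squares EGCG-treated aged against aged. Apoa4 has the lowest age value of its cluster, -2.27, and Zpr1 and Bud13 beside Apoa5 are at -1.65.

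Other genes of lipoprotein biology were taken from lists, whose counts stand against 33.4% higher and 36.1% lower over all genes tested with age, and 31.8% higher and 31.5% lower with EGCG. Of 15 tested genes on a list of other apolipoproteins, 8 were lower and 6 higher in aged than in young libraries (median -0.14). With library totals these counts were 5 and 6. With EGCG 12 were higher and 2 lower (median 0.24). The list also holds the paraoxonases Pon1 and Pon3 and the mitochondrial proteins Apoo and Apool. All of these were higher with EGCG, while with age Pon1 and Pon3 were higher and Apoo and Apool lower. Saa4 changed by -1.55 with age and Apol7a by 1.19. Of 16 genes of particle assembly and export, 11 were lower and 4 higher with age (median -0.31; 8 lower and 6 higher with library totals), and 8 were higher and 6 lower with EGCG. P4hb, the subunit that pairs with Mttp, changed by -0.5 with age and 0.5 with EGCG, Surf4, a cargo receptor for lipoproteins, by -0.54 and 0.46, and Sar1b, a GTPase of the vesicle coat, by -0.53 and 0.49. These 3 were lower in aged libraries and higher again in treated ones. For Mttp the difference with EGCG did not pass the main test, and it fell short in 19 of 20 settings.

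Of 15 lipases and regulators, 7 were higher and 4 lower with age (12 and 2 with library totals), and 4 were higher and 8 lower with EGCG. Angptl4, a lipoprotein lipase inhibitor, fell with EGCG by 2.34 on the log2 scale, from 139.3 ± 3.1 to 27.45 ± 0.717 CPM. Angptl8, which acts on the same enzyme, rose from 30.75 ± 0.83 in young to 69.75 ± 3.14 in aged and 185.3 ± 4.7 CPM in treated libraries. Of 13 receptors and uptake genes, 10 were higher and 2 lower with age (33.4% and 36.1% over all genes), and 2 were higher and 6 lower with EGCG (31.8% and 31.5%). Lrp1, an endocytic receptor of remnant particles, changed by 0.23 with age and -0.66 with EGCG, and Cd36, a fatty acid transporter, by 0.78 and 0.49. Among 10 genes of high-density particle formation and LXR targets, 6 were higher and 2 lower with age, and 4 were higher and 6 lower with EGCG. Srebf1 changed by 1.13 with age and 0.52 with EGCG, and Abcg8 by 0.99 and -0.29. Abca1, which loads lipid onto Apoa1, was among the 2 lower with age (-0.88) and changed by -0.44 with EGCG.

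Of 22 transcription factors known to bind apolipoprotein promoters, 12 were higher and 8 lower with age (median 0.12; 15 and 4 with library totals), and 7 were higher and 11 lower with EGCG (median -0.14; 10 and 10 with upper-quartile factors). Nr1d1, a clock repressor known to act on Apoc3, changed by 2.51 with age and -1.93 with EGCG. Creb3l3, a liver factor known to act on Apoa4, changed by -1.24 with age, and its value with EGCG was 0.056 (adjusted p = 0.0871, edgeR). Nr1h4, the bile acid receptor, changed by -1.17 and 0.21, and Nr0b2, its target, by 0.46 and 2.76. Hnf4a, a main hepatocyte factor, changed by -0.24 and -0.43. Whether any of these bears on the 10 genes was not tested.

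**Figure D5:**
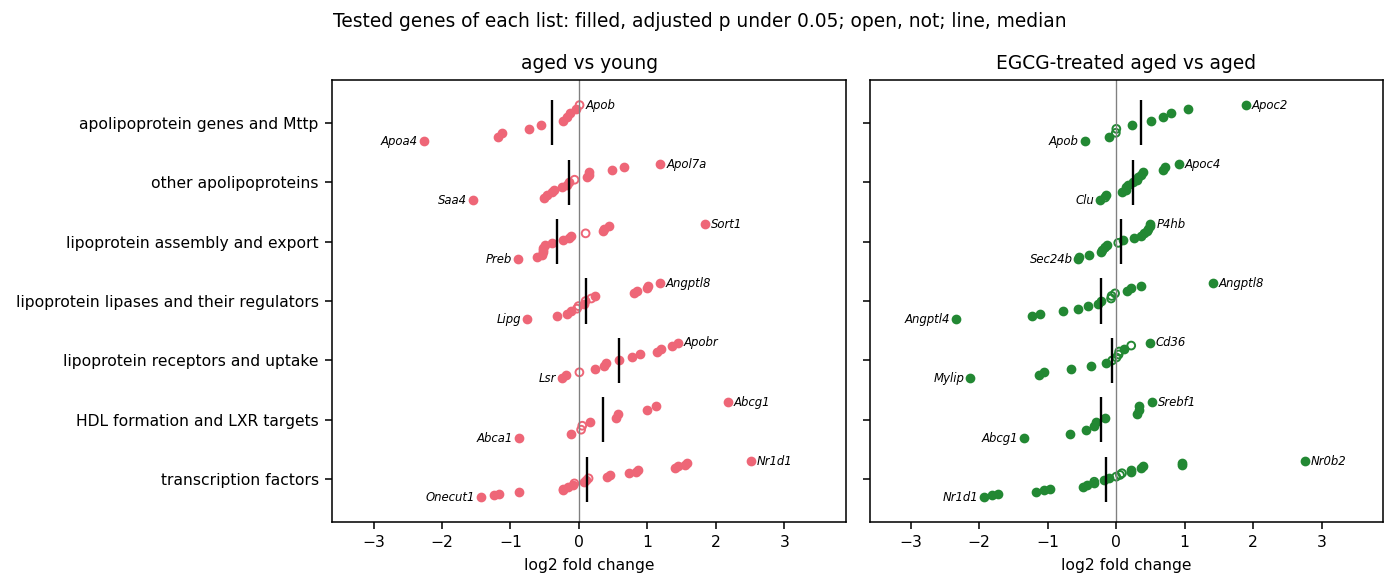
Log2 fold change (x axis) of the tested genes of each list from young to aged (left) and from aged to EGCG-treated libraries (right); filled points passed an adjusted p of 0.05, open ones did not, and lines are medians. The 10 apolipoprotein genes had medians of -0.39 and 0.37.

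Over the 9 libraries the genes most like Apoa4 by Pearson correlation of log2 CPM were Dnajb11 (r = 0.9999), Slc9a3r1 (0.9993), Selenbp2 (0.9991) and Plin2 (0.9990). Of the 8805 other genes with a mean of at least 5 CPM, 509 exceeded r = 0.95, which the 3 group means alone can give. For Apoc2 they were Tbcel (r = 0.9963), Nfic (0.9954), Hsbp1 (0.9952) and Spp2 (0.9934), with 197 genes over 0.95. All points share the same libraries and groups.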

How the data were processed

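RNA of 9 mouse libraries labelled retina, 3 each of young, aged and EGCG-treated aged mice, was sequenced. Per the labels' protocols, a Qiagen column kit and a SMARTER mRNA-seq kit were used. The authors deposited raw counts per gene symbol and FPKM values, per the file headers. The builds GRCm38 and mm10 come from the submitters' processing notes, while aligner, counter, annotation and strandedness were not given in the sources used here. Library replicates differed beyond sampling noise.

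Counts were tested with edgeR 4.0.16 (R 4.3.3): filterByExpr with a minimum count of 10, TMM factors, quasi-likelihood fits of all 9 libraries and Benjamini-Hochberg adjustment over 12747 genes at 0.05. Settings that could change a number were varied: upper-quartile and RLE factors, library totals, no filter, DESeq2 1.42.0, limma 3.58.1 on log2(FPKM + 1) and log2(FPKM + 0.1), a replicate block, only the groups compared, each library left out, and, added after the data had been seen, a length correction and the list counts under each scaling. Members and lists were chosen with earlier results of these data known. Besides all 10 members, the named genes are up to 3 per list with the smallest p in either comparison with aged libraries, marker genes, and the 4 genes most like the 2 members of widest range. Hnf4a, Bud13, Tomm40, Relb, Pon3, Apoo and Apool were named outside this rule, after their values were seen. Some genes that the rule names are not reported here.

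The fit was tested on simulated data with 200 of 12747 genes changed: of 2-fold changes 86% were recovered for aged against young, 86% for EGCG-treated against aged and 84% for EGCG-treated against young, and of 1.2-fold changes 26%, 36% and 34%. Those genes changed in random directions, whereas 62.9% to 69.5% of genes passed in the data. The rates therefore do not cover the dependence on scaling. They also rest on the scatter among these libraries, which may be technical.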

Additional observations from a re-analysis of the deposited data

How the results depend on the processing

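Depth limits mainly Apoc2, with 58 to 232 counts per library. Of the log2 fold changes of the 10 genes under the alternatives, 524 kept direction and side of the threshold, 31 changed sign, 9 fell short of the threshold and 6 passed it newly; total counts of calls stayed within 1.5 times. By direction they did not: with library totals, lower calls with age went from 4596 to 2878 over all genes, and the 10 genes from 0 higher and 9 lower to 3 and 5. The cause of a change was not tested.

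From young to aged, library totals gave 0.0653 for Apoa1, 0.0227 for Apoa2 and 0.15 for Apoe. Limma on log2(FPKM + 1) and on log2(FPKM + 0.1) gave 0.0651, 0.0225 and 0.149. Upper-quartile factors gave 0.0571 for Apoe, and the length correction, chosen after seeing the data, -0.27 for Apob. From aged to EGCG-treated, Apoa1 was -0.0123 with RLE factors and with DESeq2, -0.0175 with library totals, -0.0176 with both FPKM settings, and -0.20 with the length correction. Mttp was 0.0543 with upper-quartile factors, 0.0011 without the filter and 0.11 with the length correction. From young to treated, Apoa1 was 0.034 with upper-quartile factors, 0.0477 with library totals and 0.0475 with both FPKM settings, and Apoc3 was -0.0114 with the length correction.

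The log2 ratio of the summed CPM of the 10 genes was -0.15 from young to aged, 0.14 from aged to treated and -0.0023 from young to treated. With library totals the first was 0.053 and the last 0.177. Without Apoe the 3 ratios were -0.217, 0.0735 and -0.143.

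Leaving out each library in turn gave 8396 to 8944 calls over all genes with age, 7457 to 8177 with EGCG and 7606 to 8014 for treated against young, and 8 to 9, 8 to 8 and 10 to 10 among the 10 genes. Apob ranged from -0.0104 to 0.0246 with age, and with EGCG Apoa1 from -0.0217 to 0.0255 and Mttp from -0.0147 to 0.0113.

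Same-numbered libraries of different groups did not deviate together (r of -0.0394 to 0.0216 over 9 pairs, against -0.0342 to 0.0366 over 18 pairs with different numbers). With 3 libraries a group, such correlations cannot decide whether the numbers mark a pairing. A replicate block gave 8749, 7957 and 7907 calls over all genes, and 9, 8 and 10 among the 10 genes.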
